A study of Danio rerio with 6 samples.

Results

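Gluconeogenesis makes glucose from lactate, amino acids and glycerol, and it runs the reactions of glycolysis backwards except at steps where glycolysis is effectively irreversible. Those steps are bypassed by phosphoenolpyruvate carboxykinase, fructose-1,6-bisphosphatase and glucose-6-phosphatase, and glucokinase works against the last of them by phosphorylating glucose. Liver and kidney are the tissues best known for releasing glucose in vertebrates, and fasting hormones (glucagon and cortisol) raise the pathway while insulin lowers it.

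The genes described here are those of these bypass steps and glucokinase in zebrafish, chosen by name: pck1 and pck2, fbp1a, fbp1b and fbp2, g6pca.1, g6pca.2, g6pcb and g6pc3, and gck. The 10 symbols have 12 entries among the 30258 genes of the deposited gene table, because pck2 and fbp1b have 2 entries each. Reads were found for 10 of the 12 entries, and all 10 passed the filter on low counts. The remaining fbp1b entry (ENSDARG00000111266) and g6pcb (ENSDARG00000014967) had 0 reads in all 6 libraries. A count of 0 allows up to 3 reads, which is between 0.0567 and 0.183 CPM (counts scaled to library size) depending on the library.

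RNA was sequenced from whole, unchallenged larvae at 5 dpf, as 3 libraries of tlr2+/+ (wild type) and 3 of tlr2-/- larvae, to ask how the loss of Toll-like receptor 2 changes metabolism. The mutant line is a single allele made with the mutagen ENU, tlr2 sa19423, whose homozygous carriers were outcrossed more than 5 times to the ABTL strain. Both genotypes came from 3 pairs of 2-year-old fish bred by single crosses, so that the wild type and mutant larvae have different parents. Whatever else the parents of a genotype have in common and the effect of the mutation cannot be told apart. The libraries are described as biological replicates, with the larvae of a cross shared between RNA sequencing and metabolite work. The p-values measure only the spread between these libraries. Whole larvae were used, so that fewer cells of a type and less RNA per cell cannot be told apart.

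Depth ranged from 17854737 to 33403126 reads per library. Wild type replicates 1 and 2 stood apart in genes at 10 or more reads, with 12944 and 11906. The other 4 libraries had 15535 to 19194. For members whose value rests on either replicate, the value without it is given. Wild type replicate 3 stood apart in its scaling factor, at 1.59 by edgeR's TMM method against 0.789 to 0.983 in the others. It also had the most genes at 10 or more reads (19194). Both entries of tlr2 had 0 reads in every library, so that its expression could not check the genotypes. Libraries of the same genotype differed widely, with a common biological coefficient of variation of 1.05 in edgeR, and this limits what any single gene can show.

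No member passed the test between genotypes. By edgeR's quasi-likelihood test, adjusted by Benjamini and Hochberg's method over the 16776 genes tested, 0 of the 10 entries were called, each with an adjusted p of 0.9998, against 1 gene in all (0.00596%), which was not lower in the mutant (0% of genes were called lower). DESeq2's Wald test called 0 of the 10 as well, against 0.226% of all genes. At an unadjusted p under 0.05, a pck2 entry and gck were lower in the mutant, where 3.73% of all genes reached that threshold, 1.99% lower and 1.73% higher. Log2 fold changes (mutant minus wild type) were negative for 7 of the 10 entries, against 48.9% of all genes, and their median was -0.35 against 0.02 over all genes tested. Both pck2 entries, which share reads, are among the 7. With the entries of a symbol summed, 6 of 9 were negative and the median was -0.29. Between libraries of a genotype, the median level of the members had an SD of 0.43 on the log2 scale. For g6pca.2 and g6pc3 the sign depends on the scaling of the libraries.

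**Figure D1:**
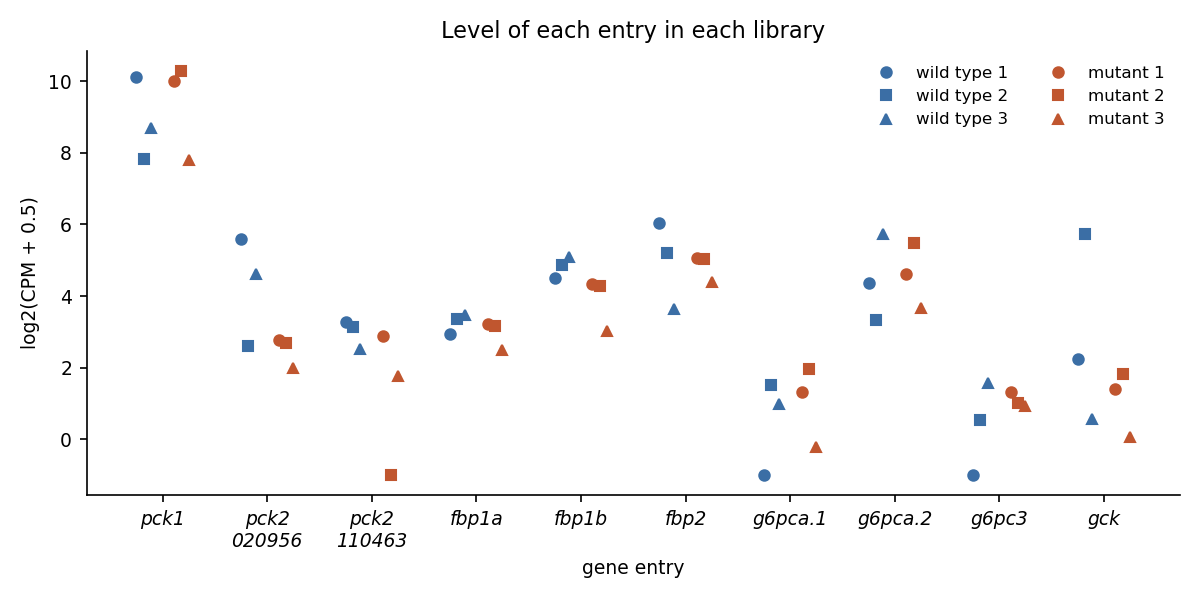
Level of the 10 entries with reads in each of the 6 libraries, as log2(CPM + 0.5), with wild type libraries in blue and mutant libraries in orange and a marker shape for each replicate number, which does not pair the libraries. The entry pck1 lies highest, fbp1b is the entry with its mutant points all below its wild type points, and gck has 1 high point, wild type replicate 2.

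Compared per transcript length, in TPM (transcripts scaled to length and library size), pck1 was far above every other member. Its median over the 6 libraries was 284 TPM (range 64.6 to 383), and its lowest library lay above the highest library of the next gene, fbp2, at a median of 20.9 TPM (13.3 to 49.3). Below pck1, neighbours in the order overlapped: fbp1b followed at 17.1 TPM, g6pca.2 at 12.4 TPM and fbp1a at 5.12 TPM. The lowest medians were those of gck at 0.795 TPM and g6pc3 at 0.656 TPM.

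Phosphoenolpyruvate carboxykinase turns oxaloacetate into phosphoenolpyruvate, the first committed step of the pathway. The gene pck1 encodes the cytosolic enzyme, whose transcription in mammals is the classic target of glucagon and glucocorticoids. In wild type larvae pck1 (ENSDARG00000013522) stood at 1104, 227 and 416 CPM in replicates 1, 2 and 3, and in mutant larvae at 1019, 1248 and 222 CPM. Each genotype thus held a low library (227 and 222 CPM) and at least 1 high library (1104 CPM in wild type), and the groups overlapped over nearly their whole range. The means were 582 ± 462 CPM and 830 ± 538 CPM (SD, n = 3 each), a log2 fold change of 0.51 (SE 0.69, 95% interval -1.02 to 2.05). The interval includes no change as well as a 4-fold higher level. Without wild type replicate 1 the log2 fold change was 1.49 (edgeR, unadjusted p = 0.0488, adjusted p close to 1). Leaving out the other libraries in turn gave between 0.09 and 0.96.

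Measures of liver content and of the glucocorticoid response are given beside pck1. The summed level of 20 hepatocyte marker genes, of which 19 had reads and hpxa had none, ran from 1016 to 2983 CPM in wild type and from 1299 to 3652 CPM in mutant libraries. It was highest in mutant replicate 2, the library with the highest pck1. Wild type replicate 2, low in pck1, had a middle value of 2282 CPM, and mutant replicate 3, lowest in pck1, had 1299 CPM. The largest part of the sum in every library was apoa2, at 479 to 2028 CPM in wild type and 783 to 2461 CPM in mutant libraries. The glucocorticoid-induced chaperone gene fkbp5 was almost absent from wild type replicate 2 at 0.720 CPM, while the other wild type libraries had 218 and 200 CPM and the mutant libraries 49.96, 44.4 and 54.2 CPM, the highest of these in mutant replicate 3. Summed over all 13 entries of the glucocorticoid response list, the level was 697, 221 and 726 CPM in wild type and 441, 429 and 387 CPM in mutant libraries. Not every gene of that list followed fkbp5: dusp1 had 59.4 CPM in wild type replicate 2 and was lowest in mutant replicate 3, at 27.1 CPM. The part of liver content or of the glucocorticoid response in the spread of pck1 was not tested. The 3 genes whose profile over the 6 libraries was most like that of pck1, of 8419 genes with a mean of at least 5 CPM, were crygn1, apom and frem1b, with root mean square differences of 0.328, 0.334 and 0.358 in centred log2 CPM.

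The gene pck2 encodes the mitochondrial enzyme, which in mammals is also a target of the transcription factor Atf4. Its 2 entries cannot be counted apart. The estimated reads of each entry were fractions in all libraries but 1, while their sums were whole numbers in 6 of 6 libraries (within 0.0015 reads), so that Salmon divided reads that match both. The entry ENSDARG00000020956 has a transcript of 3414 nt and ENSDARG00000110463 one of 1911 nt, and the first took 83.8%, 40.1% and 82.0% of the reads in wild type replicates 1 to 3 and 47.8%, 100% and 54.2% in the mutant replicates. The split therefore varied widely within both genotypes, and the sum over both entries is given as well.

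Entry ENSDARG00000020956 of pck2 had 48.0, 5.54 and 23.8 CPM in wild type and 6.34, 5.90 and 3.48 CPM in mutant larvae. The mutant libraries lay close together at the low end, and wild type replicate 2 lay there as well, below 2 of the 3 mutant libraries. The log2 fold change was -2.30 (SE 0.69, 95% interval -3.79 to -0.80, edgeR unadjusted p = 0.00559), from means of 25.8 ± 21.3 and 5.24 ± 1.54 CPM (SD, n = 3 each), and an exact two-sided permutation test over the libraries gave p = 0.3. Leaving out wild type replicate 1 gave -1.35 (edgeR, unadjusted p = 0.0731), and leaving out the other libraries in turn gave between -2.78 and -2.08. With wild type replicate 3 alone against the mutant libraries, which assumes that it varies as they do, the log2 fold change was -2.01.

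The other pck2 entry, ENSDARG00000110463, had 9.24, 8.31 and 5.23 CPM in wild type and 6.89, 0 and 2.93 CPM in mutant larvae, with groups that overlapped (log2 fold change -1.21, SE 1.31). The 0 in mutant replicate 2 is the library in which Salmon gave all 112 reads to the other entry. Summed over both entries, pck2 had 57.3, 13.8 and 29.0 CPM in wild type and 13.2, 5.90 and 6.40 CPM in mutant larvae. Every mutant library lay below every wild type library, though wild type replicate 2 exceeded mutant replicate 1 by only 13.8 to 13.2 CPM, and without scaling factors the order of these 2 was turned, at 12.6 and 12.8 CPM. The means were 33.4 ± 22.0 and 8.51 ± 4.10 CPM (SD, n = 3 each, exact two-sided permutation p = 0.1, the smallest that 3 against 3 libraries allow). Without wild type replicate 1 the wild type mean was 21.4 CPM, and the fold between the means went from 3.92 to 2.52. Fitted as a sum, pck2 had a log2 fold change of -1.97 (SE 0.56, edgeR unadjusted p = 0.00391, adjusted p = 0.9997).

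**Figure D2:**
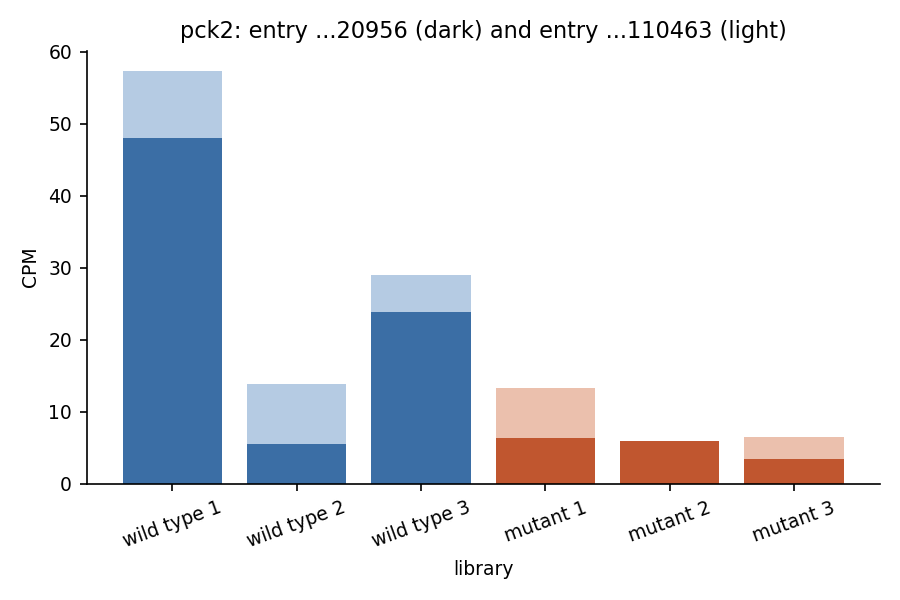
CPM of pck2 in each library, stacked from the entry ENSDARG00000020956 (dark) and the entry ENSDARG00000110463 (light), with wild type in blue and mutant in orange. The summed bars run from 13.8 to 57.3 CPM in wild type and from 5.90 to 13.2 CPM in mutant libraries, and the light part is absent in mutant replicate 2.

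The balance of the enzymes within the step does not depend on how the libraries were scaled. It does depend on how Salmon divided the pck2 reads, because a read given to the shorter entry adds more TPM. Wild type replicate 2, with the highest pck2 share, had the smallest part of its pck2 reads at the longer entry (40.1%). Mutant replicate 2, with the lowest share, had all of them there (100%). How far the split moved the share was not tested. Of the TPM of pck1 and pck2 together, pck2 made up 4.43%, 6.44% and 5.64% in wild type and 1.43%, 0.407% and 2.90% in mutant larvae. All mutant libraries were below all wild type libraries, with means of 5.50% ± 1.01 and 1.58% ± 1.25 (SD, n = 3 each, exact two-sided permutation p = 0.1). This share was computed after the values of both genes had been seen, and it moves with pck1 as much as with pck2. The genes whose profile was most like that of entry ENSDARG00000020956 were bicdl2l, krt8 and mid1ip1a, at root mean square differences of 0.471, 0.518 and 0.549. That profile includes the division of reads between the entries, and the profile of the pck2 sum was not compared.

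Fructose-1,6-bisphosphatase removes a phosphate from fructose 1,6-bisphosphate, against phosphofructokinase. In mammals FBP1 is the enzyme of liver and kidney and FBP2 that of muscle, and zebrafish carry a pair of fbp1 genes. In RefSeq annotation of GRCz12tu, another assembly, fbp2 and fbp1a are adjacent protein-coding genes, while fbp1b lies between ttc33 and erlin2.

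The gene fbp1b (ENSDARG00000020364) was the single entry of the 10 whose groups did not overlap, with 22.3, 28.9 and 33.6 CPM in wild type and 19.8, 18.9 and 7.62 CPM in mutant larvae. Of all genes tested, 13.1% had groups that did not overlap, 6.2% with the mutant below and 6.87% with the mutant above. The 1 entry in 10 is thus near the background. These shares are also the background for the other single genes given here as not overlapping. The means were 28.3 ± 5.65 and 15.4 ± 6.78 CPM (SD, n = 3 each, exact two-sided permutation p = 0.1), and the log2 fold change was -0.87 (SE 0.46, 95% interval -1.88 to 0.13, edgeR unadjusted p = 0.0830). The mutant libraries stayed below the wild type libraries with TMM factors, with RLE factors and with total reads alone. Leaving out each library in turn gave log2 fold changes from -1.10 to -0.55, the smallest without mutant replicate 3. Beside this, the summed level of 14 kidney tubule markers, all with reads, was 410 to 491 CPM in wild type and 349 to 395 CPM in mutant libraries, also without overlap. The separation of the sum lay with atp1a1a.4 and trpm7, whose sum was 235 to 318.7 CPM in wild type and 194 to 218 CPM in mutant libraries. Taken singly, atp1a1a.4 did not overlap, at 208 to 255 CPM in wild type and 175 to 184 CPM in mutant libraries. The groups of trpm7 overlapped, at 27.7 to 79.3 CPM and 19.5 to 36.3 CPM. The other 12 summed to 109 to 183 and 154 to 177 CPM, and the median log2 fold change of the 14 was -0.06. Of the 12, dab2 went the other way without overlap, at 7.03 to 14.3 CPM in wild type and 19.0 to 21.1 CPM in mutant libraries. The part of these markers in the values of fbp1b was not tested.

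The paralogue fbp1a (ENSDARG00000021366) varied least of the members, with 7.24, 9.69 and 10.7 CPM in wild type and 8.87, 8.43 and 5.18 CPM in mutant larvae. The mutant values lay among the wild type values except for replicate 3, which was the lowest of all. Its log2 fold change was -0.30 (SE 0.63, 95% interval -1.65 to 1.06). The SD of its log2 level within genotypes was 0.342, against a median of 0.870 over all genes tested.

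The ratio of the fbp1 paralogues varied little between the wild type libraries. In TPM, fbp1b exceeded fbp1a by 3.95, 3.70 and 3.81 times in wild type and by 2.82, 2.76 and 1.91 times in mutant larvae. The wild type ratios had a mean of 3.82 ± 0.123, and the mutant ratios, with a mean of 2.50 ± 0.507 (SD, n = 3 each), were all lower (exact two-sided permutation p = 0.1). Like the share of pck2, this ratio was computed after the levels had been seen. How often other pairs of genes separate in this way was not counted. The share of fbp1b in the TPM of all 3 fbp genes overlapped, at 25.9%, 40.9% and 61.6% in wild type and 34.6%, 33.6% and 25.4% in mutant larvae. Of the fbp1b reads, at least 97.4% were assigned to 1 transcript in every library, and fbp1a has a single transcript, so the ratio does not turn on how reads were divided among transcripts.

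**Figure D3:**
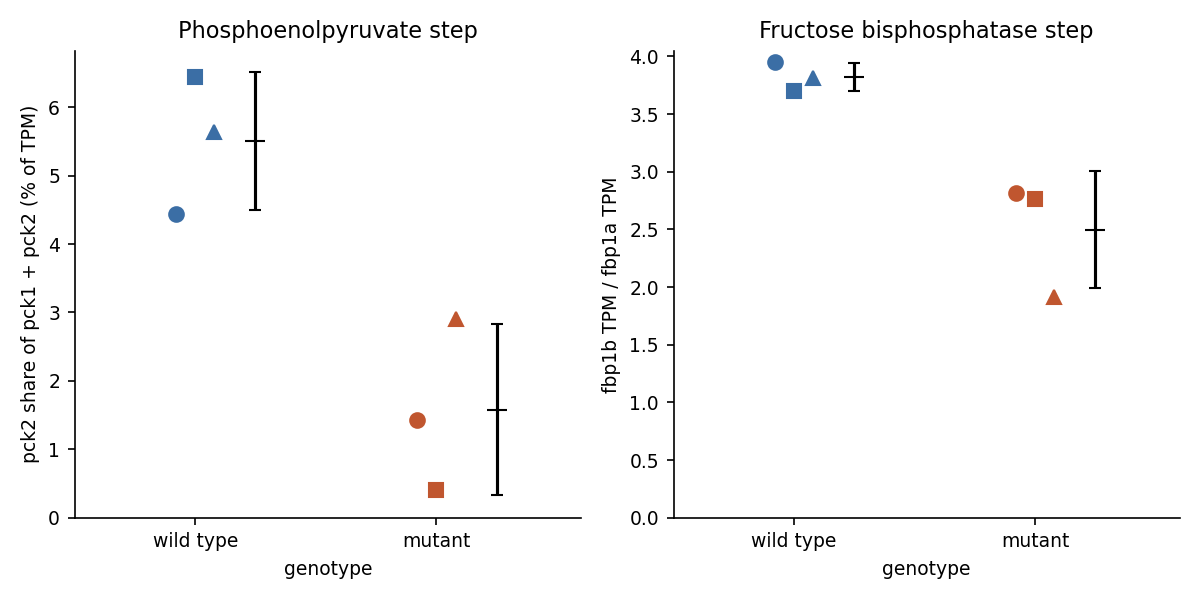
Share of pck2 in the TPM of pck1 and pck2 (left, percent) and ratio of fbp1b to fbp1a TPM (right) in each library, with wild type in blue, mutant in orange, a marker shape per replicate number, and the mean ± SD of 3 libraries in black. In both panels every mutant point lies below every wild type point: 0.407% to 2.90% against 4.43% to 6.44%, and 1.91 to 2.82 against 3.70 to 3.95.

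The gene fbp2 (ENSDARG00000012366) stood at 65.2, 36.3 and 12.01 CPM in wild type and 32.6, 31.99 and 20.5 CPM in mutant larvae. The mutant libraries lay inside the wild type range (log2 fold change -0.41, SE 0.52, 95% interval -1.55 to 0.72). The sign turned to 0.30 without wild type replicate 1 and to 1.41 with wild type replicate 3 alone. The summed level of 20 skeletal muscle markers, all with reads, was likewise lowest in wild type replicate 3, at 82578 CPM against 167340 to 256505 CPM in the other 5 libraries. That sum is mostly actc1b and other abundant genes, and the myosin heavy chain genes myhz2 (907 CPM) and myhz1.2 (1362 CPM) were highest in the same library. The part of muscle content in fbp2 was not tested.

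Summed over the 3 genes, the step stood at 73.1, 51.0 and 75.1 TPM in wild type and 44.3, 33.6 and 21.8 TPM in mutant larvae. In TPM the mutant libraries were all lower (means 66.4 ± 13.3 and 33.2 ± 11.3, SD, n = 3 each, exact two-sided permutation p = 0.1). In TMM-scaled CPM the same sum overlapped, with 94.8, 74.8 and 56.3 CPM in wild type and 61.3, 59.3 and 33.3 CPM in mutant larvae. The sums differ in the weight they give to transcript length as well as in scaling. When the TPM sums were divided by the TMM factors, the mutant libraries (23.6 to 45.9) were again all below the wild type libraries (47.2 to 74.4), wild type replicate 3 being close to mutant replicate 1.

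Glucose-6-phosphatase releases free glucose and completes the pathway. The duplicates g6pca.1 and g6pca.2 (also named g6pc1a.1 and g6pc1a.2) and g6pcb (g6pc1b) correspond to the catalytic subunit of mammalian liver and kidney, whereas g6pc3 is related to a subunit found in most mammalian tissues. Most of the signal came from g6pca.2 (ENSDARG00000013721), which made up 100%, 68.1% and 91.0% of the TPM of this step in wild type and 82.9%, 87.0% and 86.5% in mutant larvae. In wild type replicate 2 the rest was g6pca.1 at 25.1% and g6pc3 at 6.75%. The levels of g6pca.2 were 20.2, 9.53 and 52.4 CPM in wild type and 24.2, 43.8 and 12.3 CPM in mutant larvae. The mutant range lay inside the wild type range, and the log2 fold change was -0.03 (SE 0.62, 95% interval -1.40 to 1.33). It was 0.07 with RLE scaling, and without wild type replicate 3 it was 0.86.

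The levels of g6pca.1 (ENSDARG00000031616) were 0, 2.38 and 1.47 CPM in wild type and 2.02, 3.37 and 0.366 CPM in mutant larvae. Those of g6pc3 (ENSDARG00000020371) were 0, 0.942 and 2.49 CPM in wild type and 2.02, 1.53 and 1.40 CPM in mutant larvae. Wild type replicate 1 had 0 reads of both, which allows up to 3 reads, although it was one of the more deeply sequenced libraries. The log2 fold changes of 0.58 (SE 2.09) and 0.52 (SE 2.11) were far smaller than their errors, and a difference was not detectable at this depth. Without wild type replicate 1 they were 0.086 and 0.065. For g6pc3 the sign turned to -0.12 with total reads in place of scaling factors. The reads of g6pca.1 also moved between its 2 transcripts: ENSDART00000139419 held 0% of them in wild type replicate 2, 67.0% in wild type replicate 3 and 83.7%, 100% and 100% in the mutant replicates, from 6 to 78 reads per library.

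Glucokinase is the hexokinase with low affinity for glucose, known in liver, where feeding induces it in mammals and fish, and in the beta cells of the islet. In wild type larvae gck (ENSDARG00000068006) stood at 4.20, 52.6 and 0.982 CPM, and in mutant larvae at 2.16, 3.06 and 0.549 CPM. Wild type replicate 2 was thus alone in having more than a few CPM, and of the other wild type libraries replicate 1 lay above the mutant libraries and replicate 3 lay among them. It rested on 949 reads, against 9 to 126 reads in the other libraries. The log2 fold change of -3.32 (SE 1.35, 95% interval -6.38 to -0.25, edgeR unadjusted p = 0.0370) rested on that library. Without it the log2 fold change was -0.43 (unadjusted p = 0.786), with wild type replicate 3 alone it was 1.14, and the exact two-sided permutation test gave p = 0.4.

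An excess of this size in a single library was rare among the genes tested. The highest library of gck was 12.5 times the next. Counting gck itself, 5 of the genes tested (0.0298%) had a ratio at least as large with reads in the next library. The filter on low counts favours genes with reads in several libraries, so genes high in 1 library alone could be left out of this count. The cutoff was the ratio of gck itself, taken after its values were seen. Of these 5, again counting gck, 3 were highest in wild type replicate 2. The SD of gck within genotypes was 1.97 on the log2 scale, at the 98.5th percentile of all genes. In the same library the summed hepatocyte markers were 2282 CPM, inside the range of the other libraries, and the summed islet markers (16 genes, slc30a8 without reads) were 99.9 CPM, the lowest of the 6. Of the islet markers also expressed in neurons, neurod1 had 15.8 CPM and scg3 3.38 CPM there, but wild type replicate 1 had less of both (9.94 and 2.43 CPM). The islet hormone genes ins (4.76 CPM), gcgb (4.38 CPM) and sst1.1 (32.1 CPM) lay inside the range of the other libraries. For sst2 there were 0 reads, against 28.3 CPM in wild type replicate 1 and 1.23 to 10.6 CPM in the others. The gene of the glucokinase regulatory protein, gckr, which holds glucokinase in the nucleus of mammalian hepatocytes, had 0.283 CPM or less in every library and was not tested. The genes most like gck were si:dkey-263j23.1, def6b and si:dkeyp-110a12.4, at root mean square differences of 0.830, 0.964 and 0.974, so that none followed its profile as closely as crygn1 did that of pck1.

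**Figure D4:**
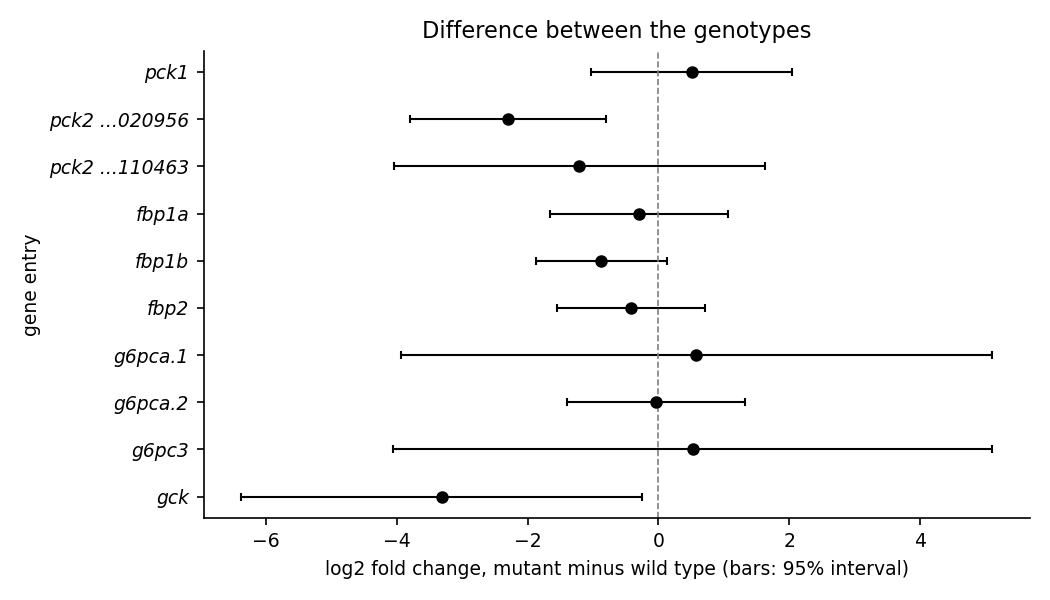
Log2 fold change, mutant minus wild type, of the 10 entries in the edgeR fit with all 6 libraries, with 95% intervals that are not adjusted for the number of genes. The intervals of pck2 entry ENSDARG00000020956 (-3.79 to -0.80) and of gck (-6.38 to -0.25) lie below 0, and those of the other 8 entries include 0.

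**Figure D5:**
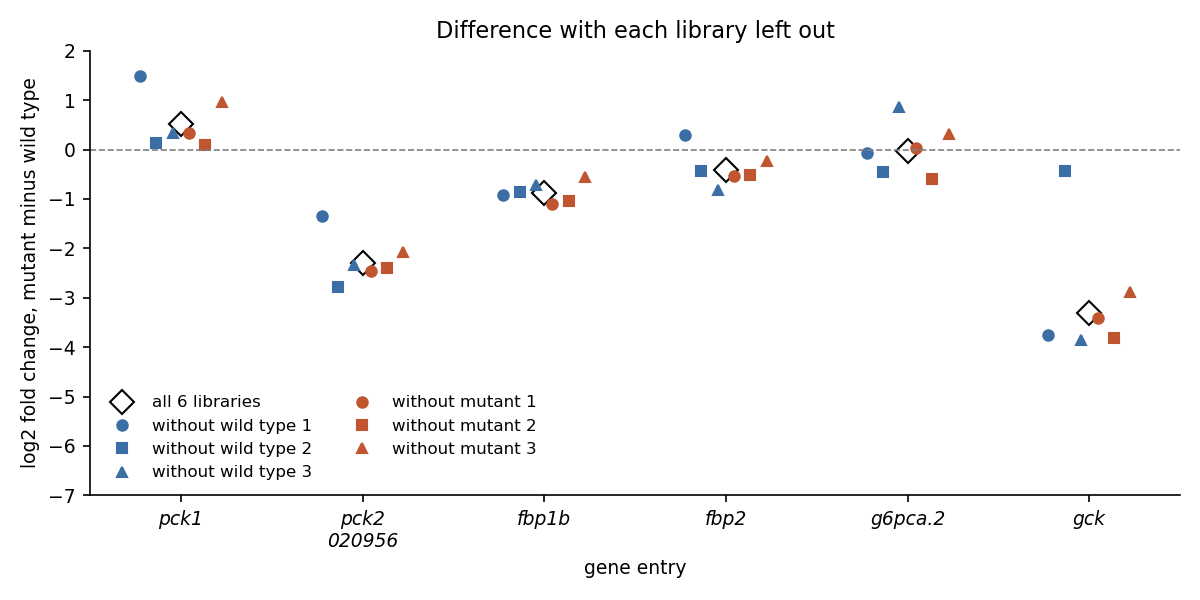
Log2 fold change of 6 entries with all libraries (open diamonds) and with each library left out in turn (filled markers: blue for a wild type library left out, orange for a mutant library). The value of gck moves from -3.32 to -0.43 without wild type replicate 2, that of fbp2 turns to 0.30 without wild type replicate 1, and those of pck2 and fbp1b stay below 0.

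The other enzymes and transporters of the pathway were examined as a list: pyruvate carboxylases, malate and aspartate shuttle enzymes, the reversible steps shared with glycolysis, and the glucose-6-phosphate transporters. Of 38 entries tested, 0 passed the adjusted threshold, 20 had a negative log2 fold change and the median was -0.14, against 0.02 over all genes. At an unadjusted p under 0.05, 3 were lower and 0 higher in the mutant, 3 of 38 against a background of 3.73% of all genes. The lowest p was that of gpib, a glucose-6-phosphate isomerase, which had 60.02, 59.9 and 33.2 CPM in wild type and 13.3, 11.1 and 19.8 CPM in mutant larvae without overlap (log2 fold change -1.79, SE 0.41, edgeR adjusted p = 0.940). The glycolytic enzymes pgk1 (-0.89) and pgam2 (-0.97) were the other members under that threshold, followed by the alanine aminotransferase gpt2 (-1.05). The next genes were higher in the mutant and did not overlap between genotypes: gapdhs (0.79, SE 0.37), a glyceraldehyde-3-phosphate dehydrogenase, and pgam1b (0.77, SE 0.37), a phosphoglycerate mutase.

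The gene pcxa, for the pyruvate carboxylase that supplies oxaloacetate to Pck, had 5.32 to 16.8 CPM in wild type and 10.9 to 18.0 CPM in mutant larvae. The transporter gene slc37a4a, which carries glucose 6-phosphate to the phosphatase, had 12.01 to 20.04 CPM in wild type and 4.58 to 16.3 CPM in mutant larvae. The paralogue pcxb had 4.04 to 11.4 CPM in wild type and 5.61 to 10.7 CPM in mutant larvae. The paralogue slc37a4b was more abundant than slc37a4a, with 23.1 to 53.7 CPM in wild type and 19.2 to 39.3 CPM in mutant larvae at entry ENSDARG00000077180. Its entry ENSDARG00000093531 had 0.332 to 2.70 CPM and 0.896 to 2.30 CPM. None of these genes was separated by genotype.

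Enzymes that oppose the pathway (hexokinases, phosphofructokinases, pyruvate kinases and the bifunctional enzymes of fructose 2,6-bisphosphate) gave 0 adjusted calls among 20 entries tested, with 11 negative log2 fold changes and a median of -0.25. The only entry at an unadjusted p under 0.05 was pfkma, a muscle phosphofructokinase that runs against the Fbp enzymes, with 188, 96.1 and 64.3 CPM in wild type and 53.8, 43.9 and 37.1 CPM in mutant larvae. Its groups did not overlap (log2 fold change -1.37, SE 0.42, edgeR unadjusted p = 0.00612). Next by p were entry ENSDARG00000060797 of pfkmb, at 14.1, 1.55 and 2.85 CPM in wild type and 1.19, 0 and 0 CPM in mutant larvae, pfklb (-0.64) and entry ENSDARG00000101482 of hk2 (-1.47), none of which passed either threshold. The other tested entries of pfkmb (-0.94 and -0.81) and hk2 (-0.27) had larger p values.

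Among hormones, receptors and transcription regulators of the pathway, 0 of 20 entries tested had an unadjusted p under 0.05, 11 were negative and the median was -0.07. The smallest p values belonged to the glucagon receptor gcgrb, at or near 0 in wild type (0, 0 and 0.0567 CPM) and at 0.460, 1.26 and 0.549 CPM in mutant larvae, and to creb1a (-0.91), cebpa (-0.83) and ins (0.82). The coactivator gene ppargc1a, which drives pck1 and g6pc in mammalian liver, was picked out after its values had been seen, with 3.90, 3.05 and 3.23 CPM in wild type and 1.01, 1.11 and 1.83 CPM in mutant larvae. Its groups did not overlap, but its log2 fold change of -1.36 had an SE of 1.51.

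Genes of the glucocorticoid response, which induces pck1 in mammals, gave 0 adjusted calls of 13 entries, 5 negative values and a median of 0.22. The pyruvate dehydrogenase kinase gene pdk2b was lower at an unadjusted edgeR p of 0.0315 (-0.92, SE 0.38), followed by entry ENSDARG00000114324 of tsc22d3 (-0.80), fkbp5 (-1.50) and klf9 (1.18). Atf4 targets gave 0 adjusted calls of 15 entries, 9 negative values and a median of -0.14. Of these, trib3, a pseudokinase gene induced by Atf4, had 27.0, 19.3 and 24.2 CPM in wild type and 12.1, 13.2 and 10.001 CPM in mutant larvae without overlap (log2 fold change -0.997, SE 0.44, edgeR unadjusted p = 0.04003). Of the amino acid response genes, asns (-3.13, SE 2.36) had 5.48 CPM in wild type replicate 2 and at most 0.634 CPM elsewhere. It and psph (0.44, SE 0.36) did not pass either threshold and differed in sign. The factor itself, atf4a (0.72, SE 0.42), did not pass either threshold. Its mutant libraries (886, 1104 and 911 CPM) all lay above the wild type libraries (736, 739 and 283 CPM). Of all genes tested, 6.87% were separated in this direction and 6.2% in that of trib3. The paralogue atf4b overlapped at its tested entry (log2 fold change 0.21, SE 0.35).

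The summed markers of liver, intestine, kidney, muscle and islet were far above 0 in every library. Enterocyte markers (16 genes, mtp without reads) summed to 1382 to 2134 CPM in wild type and 1566 to 2402 CPM in mutant libraries. Hepatocyte markers gave 0 adjusted calls of 20 entries tested, 9 negative values and a median of 0.11, and the plasma iron carrier tfa was lower at an unadjusted edgeR p of 0.0457 (-0.81, SE 0.37).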

How the data were processed

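The authors made the estimated counts and the TPM values per transcript with Salmon 1.2.1 against GRCz11, from 150 nt reads of a directional poly(A) library. The authors' mean signal of each gene, taken over the 6 libraries after normalization with DESeq2 1.24.0, was used only to join transcripts to genes. Fold changes and s-values in that deposited table were not used. Annotation release and import settings: not given in the sources used here. Transcript lengths (nt) were used as deposited.

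A gene was matched to a run of at most 40 adjacent transcript rows that reproduced its deposited mean within a relative tolerance of 1e-12. In this way 21079 genes were joined, of 23956 whose mean exceeded 0, and 4 ambiguous matches were left out. Of the 57192 transcript rows, those joined held at least 99.9% of the reads of every library. Estimated counts were summed per gene, rounded, filtered with filterByExpr and scaled with TMM factors in edgeR 4.0.16 (R 4.3.3). The robust quasi-likelihood fit had genotype alone as factor, and calls were made at an adjusted p under 0.05. SE is the size of the log2 fold change divided by the square root of F. Shares and ratios used TPM summed per gene.

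Members and lists were chosen with earlier results of these data known. The study names pck2, gpib, pfkma, pgk1 and pgam2 from these libraries, so their values are not independent evidence. It called pck2, gpib and pfkma lower in the mutant at its s-value threshold and also reported them lower by qPCR. It gives pgk1 and pgam2 as lower but not significant. Named were every member, up to 4 genes of smallest p per list, and the 3 genes most like pck1, pck2 entry ENSDARG00000020956 and gck. The genes pcxa, pcxb, slc37a4a, slc37a4b, gckr, ppargc1a, gapdhs and pgam1b, and marker genes named singly, were added after values were seen.

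The alternatives changed the scaling (RLE), the filter (none, or a mean CPM of 1 or more), transcript length (offsets), entries of a symbol (summed), the unit (transcripts), the tool (DESeq2 1.42.0, or limma 3.58.1 on log2(TPM + 1) and log2(TPM + 0.1)) and the libraries (each left out, wild type replicate 3 alone, or the replicate number as a block). Total reads without scaling factors, TPM sums divided by TMM factors, the split of the kidney markers and the pck2 sum without wild type replicate 1 were added after the data were seen. Simulated data with known changes (random seed 7) served to test the main edgeR fit and the DESeq2 fit, but not the other alternatives. Other software was numpy 2.4.6 and pandas 2.3.3 in Python 3.11.15, and matplotlib 3.10.9. RefSeq annotation of GRCz12tu, another assembly, served for names and neighbours.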

Additional observations from a re-analysis of the deposited data

How the results depend on the processing

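No member passed the adjusted threshold under any alternative that kept more than 1 library of each genotype. With wild type replicate 3 alone, pck2 entry ENSDARG00000020956 had a log2 fold change of -2.01. The count over all genes was 1 with TMM or RLE scaling and moved to 3 with no filter, 7 with limma on log2(TPM + 1), 39 with DESeq2, 48 with DESeq2 and length offsets, 64 with the replicate block and 758 with wild type replicate 3 alone. It was 0 with edgeR at a mean CPM of at least 1 (667 at an unadjusted p under 0.05), with length offsets (725), summed entries (605), transcripts (699) and total reads (972), and with limma on log2(TPM + 0.1) (1437). Leaving out each library gave 0 to 5 genes, the 0 without wild type replicate 3 (2923 at an unadjusted p under 0.05). The cause of these shifts was not tested. The median of the members' log2 fold changes stayed between -0.71 and -0.16 in all alternatives.

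Of 189 values of single members under 19 alternatives, 172 kept their direction and side of the threshold and 16 changed sign. The remaining value, which kept its direction, was that of pck2 entry ENSDARG00000020956 with wild type replicate 3 alone (-2.01). The sign of g6pca.2 turned with RLE (0.067), length offsets (0.039), the replicate block (0.14), DESeq2 (0.067) and DESeq2 with length offsets (0.14), and leaving out each library gave -0.59 to 0.86, above 0 without wild type replicate 3, mutant replicate 1 or mutant replicate 3. The sign of pck1 turned with limma at both pseudocounts (-0.059 and -0.060), that of fbp2 without wild type replicate 1 (range with each library left out -0.83 to 0.30) and with wild type replicate 3 alone (1.41), and that of g6pca.1 without mutant replicate 2 (range -0.10 to 1.36). The sign of g6pc3 turned with wild type replicate 3 alone (-0.43) and with total reads (-0.12), and that of gck with wild type replicate 3 alone (1.14). Total reads moved the median of all genes to -0.42 and the block moved it to 0.33.

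Libraries that share a number correlated by 0.021, 0.056 and 0.099 in their deviations from the group means, and not every library correlated best with its own number, so the numbers were not read as pairs. With the block no member was called.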
